A study of Homo sapiens with 4 samples.

Results

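MET, MST1R, AXL, TYRO3, MERTK, NTRK3, ROR1, ROR2, DDR1 and DDR2 encode receptor tyrosine kinases or close relatives from 5 families, and their transcripts were followed between 6 h and 24 h of RET inhibition. The 10 genes are 10 of the 20372 genes in the count table, matched by gene symbol. They were chosen from the counts of this same comparison, so their differences between 6 h and 24 h are given as a description with no test. The cells were TPC1, a human papillary thyroid carcinoma line that carries a CCDC6-RET fusion, grown in DMEM with fetal bovine serum and exposed to BLU6864, a selective RET inhibitor. Both groups received the drug: 2 libraries came from cells treated for 6 h (BLU6864_6h) and 2 from cells treated for 24 h (BLU6864_24h), and vehicle-treated cells were not analysed here. The sources do not say whether the libraries of a group came from separate cultures, so every error and P value below rests on the spread between libraries of 1 line, which may be technical. The titles mark the 24 h libraries, and not the 6 h libraries, as a re-analysis. The meaning of that mark is not given, and any effect of it cannot be told apart from that of time.

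Receptor tyrosine kinases span the cell membrane, bind a ligand outside the cell and phosphorylate tyrosines inside it, which recruits adaptors that feed the RAS-ERK and PI3K pathways. Tumor cells whose driver kinase is blocked can draw on other receptors of this class, and MET and AXL are among those most often described in that setting. Papillary thyroid carcinomas commonly express high MET, and some carry NTRK3 fusions in place of RET fusions.

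The 4 libraries held from 23917056 to 27457040 counts. Of the thyroid transcripts on an 8-gene marker list, the transcription factor gene PAX8 had 19124 to 22978 counts, the thyroglobulin gene TG had 98 to 245 counts, and NKX2-1 and TSHR had 0 in every library. Of 6 epithelial markers, 4 had over 3 counts in every library, led by KRT8, whereas CDH1 had at most 8 counts and EPCAM at most 11. Of 6 white blood cell markers CD14 alone had over 3 counts in every library, none of the 3 endothelial markers in the table did so, and 2 of 4 fibroblast markers did. The summed normalized counts of the white blood cell list were 46.1 to 52.9 at 6 h and 89.5 to 91.7 at 24 h, those of the endothelial list were 11.5 to 18.4 and 3.99 to 4.87, and those of the fibroblast list, which includes the receptor gene PDGFRB, were 369 to 399 and 204 to 226. CD14 was the called white blood cell marker and rose, from 47 and 41 counts to 85 and 91. PDGFRB was the called fibroblast marker that fell, from 303 and 373 counts to 111 and 138, whereas LUM and THY1 were called higher. LUM went from 39 and 40 counts to 71 and 66. THY1 had 0 and 3 counts at 6 h, at the floor of 3 counts per library, and 22 and 28 at 24 h. VWF was the called endothelial marker and fell, from 16 and 11 counts to 3 and 5. The part of these markers in the receptor results was not tested. In bulk RNA, fewer cells with a transcript and less of it per cell cannot be told apart.

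NTRK3, ROR1, AXL and DDR1, 4 of the receptors, had higher transcript levels after 24 h than after 6 h by more than 0.5 on the log2 scale. This cutoff is the study's downward log2 fold change cutoff of -0.5, turned upward here. Another 2, DDR2 and MET, were lower by more than that cutoff. The values of TYRO3, MERTK and ROR2 were short of it in either direction, and MST1R was not tested because its counts were too low to pass the filter. Among all 12876 genes tested, 19.0% lay over the cutoff and 19.2% lay under its negative. Both 24 h libraries lay above both 6 h libraries for 5 of the 9 tested receptors and below them for 3, and the libraries overlapped for ROR2. The libraries were separated in this way, with 24 h above, for 41.0% of all genes tested, and with 24 h below for 40.8%. Because these values chose the receptors, nothing is read from those shares. The median log2 fold change of the 9 was 0.30, and that of all genes tested was 0.0029. For the same reason, nothing is read from the difference between these medians. Nearest to the cutoff were DDR1 at 0.71, past it, and TYRO3 at 0.30, short of it.

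**Figure D1:**
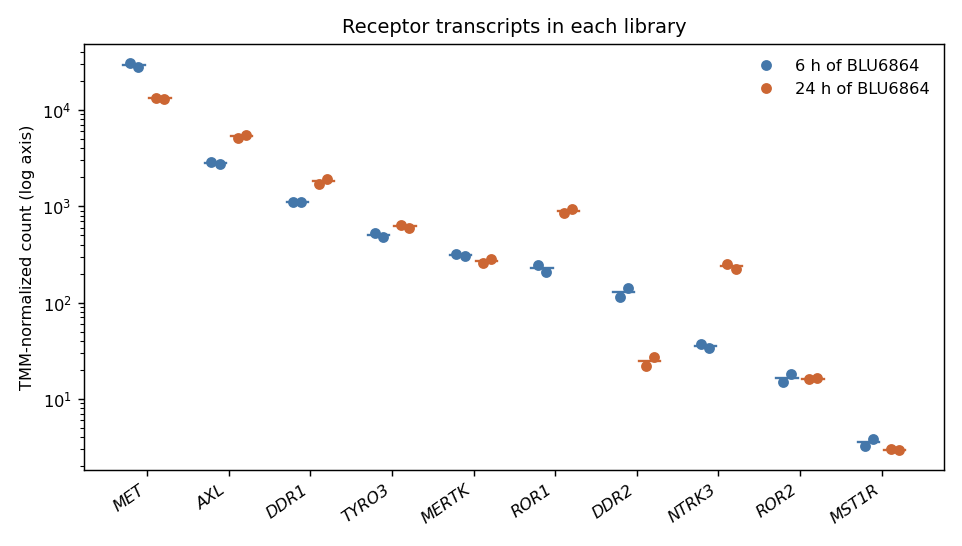
TMM-normalized counts (log axis) of the 10 receptor genes in the 2 libraries at 6 h (blue) and the 2 at 24 h (orange); points are libraries and short lines are group means. MET ran from 29077 at 6 h to 13146 at 24 h, and NTRK3 from 35.1 to 237, while the MST1R points lay at about 3 counts.

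The promoters of the receptors with the largest rises, NTRK3 and ROR1, and of the most abundant, MET and AXL, are shown so that their base composition and short motifs can be read beside the counts. RefSeq promoter windows (GRCh38.p14) were matched by symbol for all 10 receptors, giving 21 windows of 300 bases, which run from 250 bases before a transcript start to 50 after it. Printed here are the 250 bases before the start, 5′ to 3′ on the strand of the gene, with motif matches in capitals. They lie at chr15:88256740-88256989 on the minus strand for NTRK3, and on the plus strand at chr1:63773767-63774016 for ROR1, chr7:116671946-116672195 for MET and chr19:41218973-41219222 for the first of the 2 AXL windows.
NTRK3: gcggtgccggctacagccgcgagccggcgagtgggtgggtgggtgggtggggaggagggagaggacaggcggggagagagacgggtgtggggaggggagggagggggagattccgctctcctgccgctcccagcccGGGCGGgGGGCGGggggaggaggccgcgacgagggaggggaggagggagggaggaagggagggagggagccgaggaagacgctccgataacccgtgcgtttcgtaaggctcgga
ROR1: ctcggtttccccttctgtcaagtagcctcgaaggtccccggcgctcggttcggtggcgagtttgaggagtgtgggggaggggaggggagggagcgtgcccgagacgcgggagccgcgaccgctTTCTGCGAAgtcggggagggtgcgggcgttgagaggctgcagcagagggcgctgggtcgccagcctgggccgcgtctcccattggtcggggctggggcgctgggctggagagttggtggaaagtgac
MET: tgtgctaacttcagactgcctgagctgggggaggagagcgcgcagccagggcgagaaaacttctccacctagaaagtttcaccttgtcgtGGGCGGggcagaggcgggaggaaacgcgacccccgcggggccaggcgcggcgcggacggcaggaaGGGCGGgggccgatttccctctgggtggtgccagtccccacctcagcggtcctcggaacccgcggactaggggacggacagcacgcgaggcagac
AXL: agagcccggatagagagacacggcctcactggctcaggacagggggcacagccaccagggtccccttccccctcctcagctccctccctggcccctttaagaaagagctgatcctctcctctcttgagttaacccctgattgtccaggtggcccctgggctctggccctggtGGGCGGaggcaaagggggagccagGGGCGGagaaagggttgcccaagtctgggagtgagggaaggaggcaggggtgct
The capitals in NTRK3, MET and AXL mark the SP1 GC box GGGCGG, 2 in each stretch, and those in ROR1 mark 1 STAT motif, TTCNNNGAA. Both strands were searched, and the searched motifs do not contain each other.

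GC-rich promoter sequence was shared by receptors whose transcripts were higher at 24 h and by those that were not. Over the whole 300-base window, GC content was 72% for NTRK3, 69% for ROR1, 69.3% for MET and 66% for the first AXL window, against a median of 58.7% over all windows. The 3 DDR2 windows had 41%, 45% and 44.7%. Windows below the median were not confined to DDR2, since the last DDR1 window had 44.3%, the second AXL window 53.7% and the second TYRO3 window 58.3%. The GC box occurred in 11 of the 21 receptor windows, none of them of ROR1 or DDR2, and in 45.0% of all 35116 windows. MET had 3 GC boxes and 1 E-box (CACGTG, in 7.26% of all windows) over its full window. A STAT motif was found in 2 of the 21 windows, of ROR1 and DDR2 (7.66% of all windows). The AP-1 motif TGANTCA was found in 3, of DDR2, DDR1 and TYRO3 (7.71% of all windows), the ETS motif CCGGAAG in 1, of MST1R (10.3%), the FOXO motif GTAAACA in 1, of AXL (3.42%) and the TATA box TATAAA in 2, both of DDR2 (11.5%). No window of the 10 receptors held the CRE motif TGACGTCA, which is in 1.85% of all windows. These are matches of letters, and binding was not measured.

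MET, the receptor for hepatocyte growth factor, was the most abundant of the receptors at both times and was lower at 24 h. The gene (ENSG00000105976) lies on chromosome 7 at 116312444 to 116438440 in hg19, the build of the table. It had 28095 and 29002 counts at 6 h and 13343 and 13358 at 24 h. After normalization the mean went from 29077 ± 1771 (SD, n = 2) to 13146 ± 208 (SD, n = 2), and the libraries did not overlap. The log2 fold change was -1.15 (SE 0.0809, 95% interval -1.31 to -0.98), or 2.21-fold lower. Of all genes tested, 7.23% had a larger fall. MST1R, which encodes RON, the receptor for macrophage-stimulating protein and the closest relative of MET, was close to undetected. It had 3 and 4 counts at 6 h and 3 and 3 at 24 h, against a floor of 3 counts per library, so no fold change is given. Its gene (ENSG00000164078, chromosome 3, 49924435 to 49941299) was the only one of the 10 that overlapped another gene of the table.

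Of 15 genes for the ligands of MET and RON, the proteases and protease inhibitors that act on the ligand precursors, and co-receptors, 11 were tested, and 4 rose and 4 fell. A gene was called here when it passed the log2 cutoff of 0.5 in either direction with an unadjusted P under 0.01. Of all genes tested, 17.4% were called higher and 17.7% lower, the background for the counts of every list below. The median log2 fold change of the list was -0.41. HGF, the MET ligand, had 0 and 0 counts at 6 h and 2 and 0 at 24 h, so the cells held next to no transcript of it at either time. MST1, the RON ligand, had 147 and 180 counts and then 132 and 186 and was not called (log2 fold change -0.09, SE 0.150), although MST1 has near-identical copies in the genome and its counts are uncertain. ST14, which encodes matriptase, a protease that activates the HGF precursor, fell from 191 and 216 counts to 11 and 22 (log2 fold change -3.66, SE 0.221, edgeR adjusted P = 6.39e-14). The integrin gene ITGA6 fell with it (-1.15, SE 0.0779), as did CD44, whose product presents HGF to MET (-0.61, SE 0.0851). The plexins PLXNB1, which associates with MET, and PLXNB2 rose by log2 fold changes of 1.39 (SE 0.0730) and 1.20 (SE 0.0789), and the neuropilin gene NRP1 rose by 0.83 (SE 0.0764). SPINT2, an inhibitor of matriptase, went from 15 and 25 counts to 7 and 4 and was called lower, but it was not called with DESeq2 or without either of 2 libraries, the second at 24 h and the second at 6 h. ITGB4 had 2 and 3 counts at 6 h, at the floor, and 19 and 23 at 24 h. HPN, which encodes hepsin, another protease that activates HGF, had 5 and 1 counts and then 11 and 10, and of the alternatives run it was called higher only in that without the first 6 h library.

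The TAM receptors TYRO3, AXL and MERTK bind GAS6 and protein S, which link them to phosphatidylserine on dying cells and vesicles. Within this family AXL was the most abundant and the only one past the cutoff. AXL (ENSG00000167601, chromosome 19, 41725108 to 41767671) had 2635 and 2846 counts at 6 h and 5120 and 5624 at 24 h. Its normalized mean went from 2787 ± 80.7 to 5287 ± 263 (SD, n = 2 each), 1.90-fold higher, and the libraries did not overlap. The log2 fold change was 0.92 (SE 0.0723, 95% interval 0.77 to 1.07), and 8.24% of all genes tested had a larger rise. TYRO3 (ENSG00000092445, chromosome 15, 41849873 to 41871536) had 490 and 494 counts at 6 h and 640 and 611 at 24 h. Its libraries were also separated, with a smaller log2 fold change of 0.30 (SE 0.0919, 95% interval 0.11 to 0.49). MERTK, best known for the uptake of dying cells by phagocytes (ENSG00000153208, chromosome 2, 112656056 to 112787138), had 296 and 315 counts at 6 h and 258 and 290 at 24 h. The 24 h libraries lay below the 6 h libraries after normalization, with a log2 fold change of -0.20 (SE 0.110, 95% interval -0.43 to 0.02). The ratio of AXL to MERTK counts within a library was 8.90 and 9.03 at 6 h and 19.8 and 19.4 at 24 h.

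GAS6, the ligand shared by the 3 TAM receptors, rose, whereas protein S did not pass the cutoff. GAS6 had 583 and 647 counts at 6 h and 1492 and 1428 at 24 h (log2 fold change 1.20, SE 0.0790, edgeR adjusted P = 3.77e-13). PROS1, which encodes protein S, a ligand of TYRO3 and MERTK, had 2312 and 2252 counts and then 2795 and 2634 (0.20, SE 0.0768). On the list of 7 TAM ligand and gamma-carboxylation genes, 6 were tested, 2 rose and 1 fell, with a median of 0.11. The other riser was TUB, whose product tubby is a reported MERTK ligand (0.91, SE 0.0879). LGALS3, which encodes galectin-3, also a reported MERTK ligand, fell (-0.61, SE 0.0791). GGCX and VKORC1, whose enzymes carry out and sustain the carboxylation that GAS6 and protein S need, were not called, with log2 fold changes of 0.01 and -0.09.

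NTRK3, which encodes TrkC, the receptor for neurotrophin-3, had the largest difference of the 10 receptors. The gene (ENSG00000140538) lies on chromosome 15 at 88418230 to 88799999. It had 34 and 35 counts at 6 h and 251 and 230 at 24 h. The normalized mean went from 35.1 ± 2.21 to 237 ± 18.6 (SD, n = 2 each), 6.74-fold higher, and the libraries were far apart. The log2 fold change was 2.75 (SE 0.175, 95% interval 2.39 to 3.11), and 0.738% of all genes tested had a larger rise. Counts per gene do not separate the full receptor from the shorter forms of TrkC that lack the kinase.

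Neurotrophin-3 itself was not detected: NTF3 had 0 counts in all 4 libraries. Of 9 neurotrophin and receptor genes, 4 were tested, 2 rose and none fell by edgeR, and the median log2 fold change was 0.67. PTPRS, a phosphatase that binds TrkC, and NTF4 were the tested genes that were not called, and the number that fell was also 0 at an unadjusted P under 0.05 and with DESeq2. BDNF, the ligand of TrkB, had 439 and 492 counts at 6 h and 1025 and 948 at 24 h (1.04, SE 0.0873). SORT1, which encodes the sorting receptor sortilin, went from 409 and 450 counts to 929 and 974 (1.10, SE 0.0860). NTRK2, which encodes the BDNF receptor TrkB, was scarcely detected, with 4 and 0 counts at 6 h and 0 and 0 at 24 h.

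ROR1 and ROR2 are WNT5A-binding receptors with weak or no kinase activity that act in planar cell polarity, and they are best known in the embryo and in leukemia. The pair differed: ROR1 was higher at 24 h and ROR2 was low throughout. ROR1 (ENSG00000185483, chromosome 1, 64239693 to 64647181) had 227 and 216 counts at 6 h and 849 and 961 at 24 h. Its normalized mean went from 226 ± 26.7 to 891 ± 63.2 (SD, n = 2 each), 3.94-fold higher. The log2 fold change was 1.98 (SE 0.102, 95% interval 1.77 to 2.19), with non-overlapping libraries, and 1.79% of all genes tested had a larger rise. ROR2 (ENSG00000169071, chromosome 9, 94325373 to 94712444) had 14 and 19 counts and then 16 and 17. Its libraries overlapped, and at these low counts the log2 fold change of -0.04 had a wide error (SE 0.370, 95% interval -0.80 to 0.72). The ratio of ROR1 to ROR2 counts within a library was 16.2 and 11.4 at 6 h and 53.1 and 56.5 at 24 h.

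The WNT5 ligands went in opposite directions. WNT5A fell from 1076 and 1191 counts to 752 and 779 (log2 fold change -0.61, SE 0.0778), and WNT5B rose from 673 and 821 to 1074 and 1220 (0.57, SE 0.0823). All 9 genes of the ROR ligand and planar polarity list were tested, of which 1 rose and 3 fell, with a median of 0.07. IGFBP5, which encodes a secreted IGF-binding protein also reported to bind ROR1, fell from 240 and 273 counts to 13 and 13 (-4.33, SE 0.207, edgeR adjusted P = 4.13e-16). The polarity gene VANGL1 was called lower at -0.51 (SE 0.0793) and lay within the cutoff with upper quartile scaling and without the first library of either time. Its paralog VANGL2 had a log2 fold change of 0.07, and none of the 3 dishevelled genes was called.

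The discoidin domain receptors DDR1 and DDR2 are activated by collagen rather than by a soluble ligand. DDR1, mostly epithelial, binds fibrillar collagens and the basement membrane collagen IV, and DDR2, mostly mesenchymal, binds fibrillar collagens. Here DDR1 was higher and DDR2 lower at 24 h. DDR1 (ENSG00000204580, chromosome 6, 30844198 to 30867933) had 1019 and 1163 counts at 6 h and 1698 and 1987 at 24 h. Its normalized mean went from 1108 ± 11.1 to 1813 ± 171 (SD, n = 2 each), with a log2 fold change of 0.71 (SE 0.0760, 95% interval 0.55 to 0.87). DDR2 (ENSG00000162733, chromosome 1, 162601163 to 162757190) had 107 and 148 counts at 6 h and 22 and 28 at 24 h. The mean of DDR2 went from 129 ± 18.7 to 24.6 ± 3.77 (SD, n = 2 each), 5.24-fold lower, and the log2 fold change was -2.39 (SE 0.220, 95% interval -2.84 to -1.93). Neither gene had overlapping libraries. The DDR1 to DDR2 ratio of counts within a library was 9.52 and 7.86 at 6 h and 77.2 and 71.0 at 24 h.

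COL4A1 and COL4A2, the main chains of collagen IV in basement membrane, rose, and COL1A1 of the fibrillar collagen I fell. COL4A1 went from 5581 and 5720 counts to 15874 and 19491 (log2 fold change 1.60, SE 0.0870, edgeR adjusted P = 6.90e-15) and COL4A2 from 9148 and 9444 to 19676 and 25963 (1.24, SE 0.0947). COL4A5 was not called (-0.04, SE 0.0809). COL1A1 fell from 218 and 237 counts to 63 and 95 (-1.57, SE 0.159), while COL1A2, COL2A1, COL3A1 and COL5A3 had 0 counts in every library. Of the collagen V chains, COL5A1 rose (0.68, SE 0.130) and COL5A2 fell (-0.68, SE 0.0841), and COL5A1 lay just within the cutoff without the second 24 h library, at 0.50. Of 17 collagen ligand genes, 10 were tested, 5 rose and 3 fell, with a median of 0.58. The other 3 called genes were low: COL4A4 had 5 to 30 counts, COL8A2 6 to 36, and COL4A6, which fell, 3 to 31. These 3 dropped out of the test under a stricter filter that asked for 10 or more counts per library, which left 5 called genes. COL4A4 was not called without the second 24 h library, and COL8A2 was not called without the first 6 h library or with DESeq2. COL8A1, not called at 0.48 (SE 0.0765), was called higher with upper quartile scaling and without the first library of either time.

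**Figure D2:**
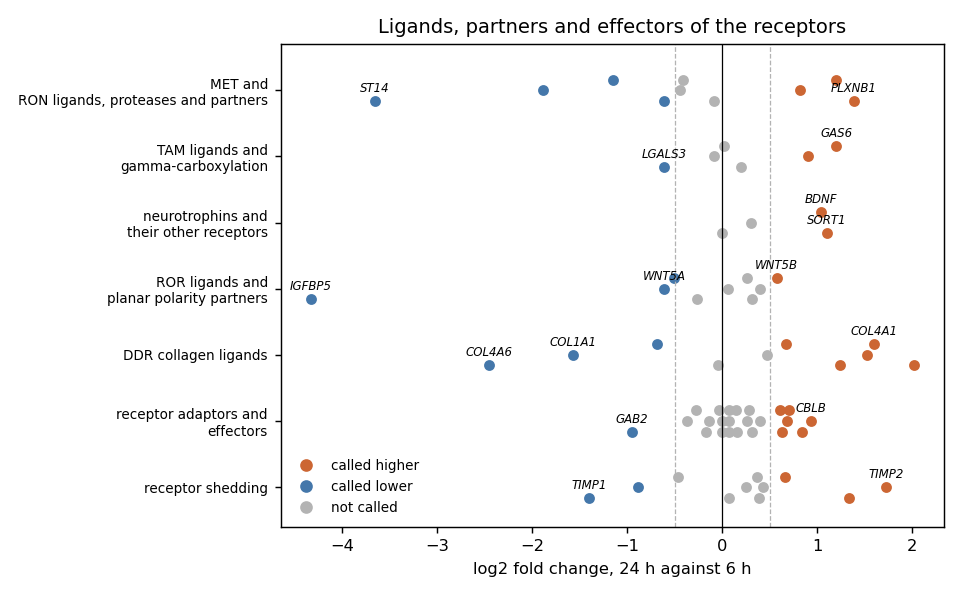
Log2 fold change (24 h against 6 h) of each tested ligand, partner, adaptor or shedding gene, by list; orange and blue points were called higher and lower, gray points were not called, and dashed lines mark 0.5 and -0.5. ITGB4 is left out because its 6 h counts were at the floor. IGFBP5 and ST14 lay farthest to the left, at -4.33 and -3.66.

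The adaptors and effectors act inside the cell downstream of these receptors and include kinases, phospholipases and ubiquitin ligases. More of them rose than fell. Most were not called, which also held among all genes tested. All 23 were tested, 6 rose (26.1%) and 1 fell (4.35%), against 17.4% and 17.7% of all genes tested. The median log2 fold change of the list was 0.15. CBLB, which encodes an E3 ligase that tags active receptors for degradation, rose by 0.94 (SE 0.0952), SHC2 by 0.84 (SE 0.0809), SRC by 0.70 (SE 0.0704) and PLCG2 by 0.69 (SE 0.0697). GAB2, a docking protein downstream of AXL and MET, fell (-0.95, SE 0.102). GAB1, the docking protein best known with MET, was not called (0.15, SE 0.112).

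The proteases that cut receptor ectodomains from the cell surface, and their inhibitors, did not share a direction. Of 12 such genes 11 were tested, 3 rose and 2 fell, and the median was 0.37. ADAM17 fell from 6318 and 6782 counts to 3678 and 3627 (-0.89, SE 0.0716), whereas ADAM9 rose (0.66, SE 0.0843). ADAM10, which with ADAM17 is known to shed AXL and MET, was not called at 0.43 (SE 0.0799) and passed the cutoff without the first 6 h library, at 0.55. MMP14, a membrane-bound metalloproteinase, was not called at -0.47 (SE 0.0850) and passed the cutoff with library size alone or without the second 6 h library. TIMP1, a secreted metalloproteinase inhibitor, fell from 32893 and 34966 counts to 12841 and 13726 (-1.40, SE 0.0814), and TIMP2 rose from 6217 and 6438 to 19489 and 23805 (1.72, SE 0.0874). PSEN2, a catalytic subunit of gamma-secretase, which processes what shedding leaves in the membrane, rose by 1.34 (SE 0.0919).

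Per kilobase of exon, MET stood above the other receptors at both times, but its lead over AXL narrowed. Levels here are normalized counts divided by the length of the union of exons of the gene (GENCODE v44). At 6 h the order was MET at 4025, AXL at 543, DDR1 at 121, MERTK at 75.2, TYRO3 at 46.6, ROR1 at 33.7, DDR2 at 11.6, ROR2 at 2.84, NTRK3 at 1.31 and MST1R at 0.674. At 24 h it was MET at 1820, AXL at 1030, DDR1 at 199, ROR1 at 133, MERTK at 65.2, TYRO3 at 57.2, NTRK3 at 8.85, ROR2 at 2.76, DDR2 at 2.21 and MST1R at 0.562. The library ranges of neighbors in this order did not overlap at either time, but with the longest coding transcript as the length TYRO3 stood above MERTK at 24 h. The MET level was 7.41 times that of AXL at 6 h and 1.77 times at 24 h. NTRK3, despite the largest relative difference, stayed below TYRO3 by 6.46 times at 24 h, and its exon union of 26773 bases is the longest of the 10.

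**Figure D3:**
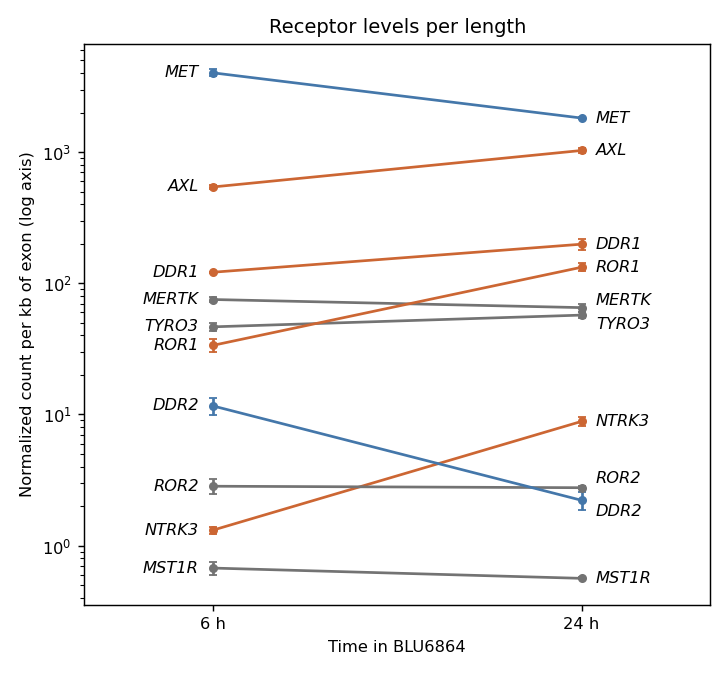
Mean normalized count per kilobase of exon (log axis) of each receptor gene at 6 h and 24 h; bars are SD over 2 libraries, orange lines were over the log2 cutoff of 0.5, blue lines under -0.5 and gray lines neither. ROR1 passed MERTK and TYRO3 (33.7 to 133), and NTRK3 (1.31 to 8.85) and DDR2 (11.6 to 2.21) crossed.

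The same shift was seen within each library, where no scaling between libraries enters. Reads per kilobase were summed over 58 receptor tyrosine kinase genes, the 10 described here and 48 others. The 10 made up 65.6% and 64.0% of this pool at 6 h and 46.3% and 45.1% at 24 h. MET alone held 54.5% and 52.7% at 6 h and 26.0% and 24.2% at 24 h. AXL held 7.20% and 7.28% and then 14.0% and 14.3%. The shares of DDR1 were 1.57% and 1.67% and then 2.62% and 2.85%, and those of ROR1 were 0.474% and 0.422% and then 1.78% and 1.87%. With the longest coding transcript as the length, MET held 43.5% and 41.9% at 6 h and 18.5% and 17.1% at 24 h. By that length the 10 together held 54.1% and 52.7% at 6 h and 35.7% and 34.8% at 24 h. AXL then held 5.95% and 5.99% at 6 h and 10.3% and 10.5% at 24 h. The size of these shares thus depended on the length used, while their direction did not. The plain count ratio of MET to AXL was 10.7 and 10.2 at 6 h and 2.61 and 2.38 at 24 h.

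**Figure D4:**
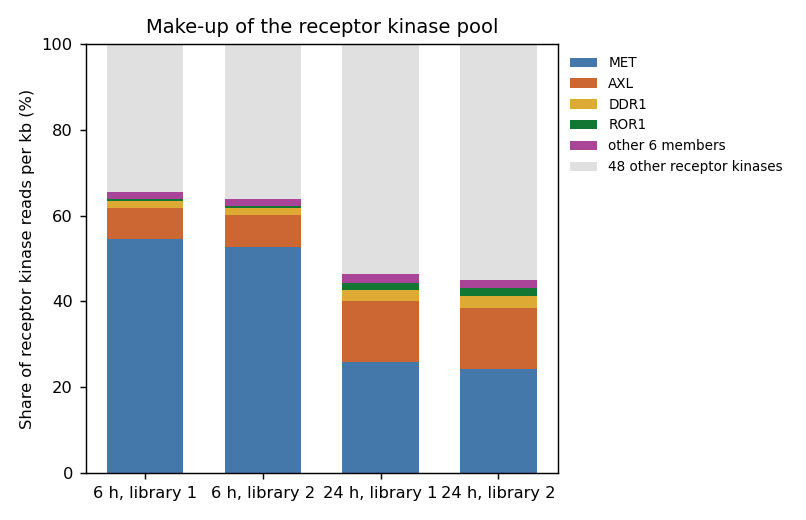
Share (%) of the summed reads per kilobase of exon of 58 receptor tyrosine kinase genes in each of the 4 libraries; colored segments are MET, AXL, DDR1, ROR1 and the other 6 receptors described here, and light gray is the 48 other receptor kinase genes. The MET segment takes 54.5% and 52.7% at 6 h and 26.0% and 24.2% at 24 h.

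Set beside the other receptor tyrosine kinases, the 10 spanned most of the range. Together 36 receptor genes were tested, 9 of them described here. NTRK3 ranked 1 and ROR1 ranked 3 among the rises, with the ephrin receptor EPHA4 between them and FGFR1 next, and AXL and DDR1 ranked 12 and 13. Among the falls DDR2 ranked 2 and MET ranked 7. Of the 27 other tested receptors, 10 rose (37.0%) and 6 fell (22.2%), against 17.4% and 17.7% of all genes tested. The 27 had a median log2 fold change of 0.26, against 0.0029 for all genes tested. EPHA4 rose from 70 and 52 counts to 363 and 363 (2.52, SE 0.153), FGFR1 by 1.40 (SE 0.0747), EPHB1 by 1.24 (SE 0.106) and EGFR by 1.13 (SE 0.0856). KDR, the VEGF receptor of endothelial cells, fell from 485 and 517 counts to 44 and 22 (-3.97, SE 0.172), TIE1, another endothelial receptor, by a log2 fold change of -2.38 (SE 0.125), and PDGFRB by -1.48 (SE 0.129). CSF1R (-2.15, SE 0.391), ERBB3 (-0.79, SE 0.163) and FGFR3 (-0.59, SE 0.184) were also called lower. The call of FGFR3, and that of EPHA3 (0.99, SE 0.325), was lost with DESeq2, without the second 24 h library and without either 6 h library. ERBB2 (0.51, SE 0.0776) lay within the cutoff with library size alone and without the second library of either time, and CSF1R had 7 counts in each 24 h library and dropped out under the stricter filter. EPHA5 was called lower only without the second 24 h library, at -0.82 against -0.49 with all 4. Of the endothelial markers, VWF was also called lower, from 16 and 11 counts to 3 and 5 (log2 fold change -1.77). CDH5 and CLDN5 had at most 1 count in any library. The part of endothelial cells in the falls of KDR and TIE1 was not tested. RET, the target of the drug, had 1387 and 1480 counts and then 1454 and 1522 and was not called (log2 fold change 0.01, 95% interval -0.14 to 0.15), and counts per gene do not separate RET from its fusion.

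**Figure D5:**
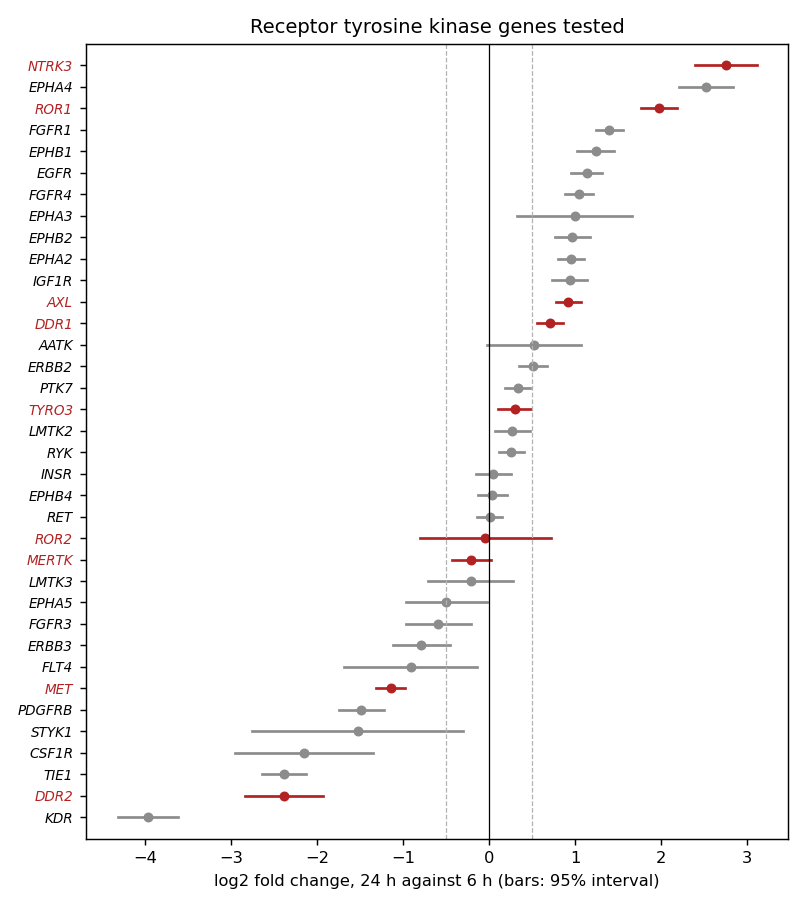
Log2 fold change (24 h against 6 h) with its 95% interval for the 36 receptor tyrosine kinase genes tested, ranked; the 9 tested receptors described here are red, the 27 others gray, and dashed lines mark 0.5 and -0.5. NTRK3 stands at the top (2.75), and DDR2 (-2.39) is second from the bottom, above KDR (-3.97).

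For each receptor with a mean of at least 50 normalized counts, the other receptor kinase with the most similar course was found among the 27 by Euclidean distance between log2 values centered on their mean, over 4 libraries. With 2 libraries per time, such a course is mainly the size of the difference. AXL lay nearest to EPHB2 (distance 0.0451), TYRO3 to RYK (0.0880), MERTK to LMTK3 (0.0956) and DDR1 to ERBB2 (0.214). DDR2 lay nearest to TIE1 (0.312), NTRK3 to EPHA4 (0.398), MET to STYK1 (0.428) and ROR1 to FGFR1 (0.597). STYK1 had only 3 to 11 counts.

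The genes that flank DDR2 on chromosome 1 both fell with it. UAP1, which makes UDP-N-acetylglucosamine, went from 6520 and 7258 counts to 2515 and 2399 (log2 fold change -1.53, SE 0.0731), and HSD17B7, an enzyme of cholesterol synthesis, from 2014 and 2575 to 861 and 881 (-1.44, SE 0.0770). Of the 20 genes next to the 10 receptors, 15 were tested, 2 rose and 4 fell, with a median of -0.25. The neighbors called lower were 26.7% of those tested and those called higher 13.3%, against 17.7% and 17.4% of all genes tested. The neighbors of MET, CAV1 (-0.15, SE 0.0772) and CAPZA2 (-0.28, SE 0.0750), were not called. The other called neighbors were NFIL3 beside ROR2 (-0.62, SE 0.0727), UBE2U beside ROR1 (-1.60, SE 0.525, 4 to 15 counts), MGA beside TYRO3 (0.50, SE 0.0864) and ANAPC1 beside MERTK (0.54, SE 0.0960). The call of UBE2U was lost when any of the 4 libraries was left out, with DESeq2 and with no filter on low counts, and the stricter filter left it untested. MGA lost its call without the first library of either time or with library size alone, and ANAPC1 without the second 6 h library.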

How the data were processed

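RNA-seq libraries were made from total RNA of TPC1 cells after 6 h (2 libraries) and 24 h (2 libraries) of BLU6864. The authors deposited raw read counts per gene with a signal, the count divided by a DESeq2 size factor per library. They also deposited their own log2 fold changes, the standard error and Wald statistic (a score each) and p-values, none of which was used here. The submitters' processing notes name STAR 2.3, DESeq2 and hg19, while the methods name a later STAR release. The labels and the methods also differ in the unit of the drug dose and in the read layout. The counting program, annotation and strand setting were not given in the sources used here. Of the 20372 genes, 12876 passed filterByExpr. Counts were scaled by TMM and fitted with the quasi-likelihood test of edgeR 4.0.16 (R 4.3.3), with Benjamini-Hochberg adjustment over all genes tested. Standard errors come from the F statistic. The script was tested on simulated data. The 10 receptors, the gene lists and the alternatives were chosen with earlier results of these data known. Genes were named as follows: all 10 receptors, up to 4 called genes per list with the largest changes and a mean of at least 50 normalized counts, up to 3 called against the majority, the main ligands, called neighbors, nearest receptors and genes whose call an alternative changed; others named were chosen after their values were seen. A few listed genes are not reported here. DESeq2 1.42.0, 2 other scalings, 2 other filters, a replicate block, an adjusted P cutoff and leaving out each library were alternatives. Replicates differed by more than sampling noise (chi-square per degree of freedom 10.1 at 6 h and 7.70 at 24 h). Depth was 23917056 to 27457040 counts, and the floor of 3 counts per library covers counting error only.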

Additional observations from a re-analysis of the deposited data

How the results depend on the processing

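No called result changed direction under the alternatives run. The count of receptors past the cutoff was 6 under every alternative, and the log2 fold changes ranged from -1.21 to -1.08 for MET, 0.88 to 0.98 for AXL, 0.22 to 0.38 for TYRO3, -0.27 to -0.13 for MERTK, 2.68 to 2.84 for NTRK3, -2.55 to -2.23 for DDR2 and -0.17 to 0.10 for ROR2, the last on both sides of 0. ROR1 ranged from 1.86 to 2.10 and DDR1 from 0.62 to 0.81, in each case by more than their standard error, when single libraries were left out; the lone library was then assumed to vary like the other group. Collagen ligand genes called went from 8 to 5 when 10 or more counts were asked of each library, since fewer could then be tested. Of all genes tested, 2238 were called higher and 2278 lower, 2003 and 2083 with DESeq2, and 2030 and 2499 with library size alone, which moved the higher share of calls from 49.6% to 44.8% and the median of all genes to -0.04. Upper quartile scaling gave 2381 and 2115, a higher share of 53.0%, and a median of 0.03. With a replicate block 2283 were higher and 2313 lower, and the block changed no call of a listed gene. Same-numbered libraries deviated together with a correlation of 0.0844. With 2 libraries per time this value cannot show whether they were paired, and the sources do not say. Low counts limit ROR2, MST1R and the scarce collagens.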
